A study of Homo sapiens with 15 samples.

Results

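The CDK inhibitors and D cyclins were 10 genes of the 25737 entries in the deposited table, taken by their symbols, and they were measured in U87MG cells. U87MG is an established human glioblastoma line. The cells had been treated for 24 h with lentivirus carrying GFP as the control or with lentivirus for overexpression of ID1, ID2, ID3 or ID4. Each of these 5 groups had 3 libraries, numbered 1 to 3, and the labels do not say whether they came from separate cultures, so the p-values measure the spread between these libraries. The groups share the same line, medium and virus type, and GFP is the sole control for all 4 ID groups. The vector promoter and the share of cells transduced are not given in the sources used here. Levels are given in CPM, the count of a gene scaled by the total count of its library. Changes are log2 fold changes from edgeR's quasi-likelihood test over all 15 libraries, with p-values adjusted by the Benjamini-Hochberg method over 12870 tested genes and a threshold of 0.05.

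Progress from G1 into S phase depends on D cyclins, which bind and activate CDK4 and CDK6 so that these kinases phosphorylate the retinoblastoma protein and release E2F transcription factors. INK4 inhibitors, encoded by CDKN2A, CDKN2B, CDKN2C and CDKN2D, bind CDK4 and CDK6 directly, whereas the CIP/KIP inhibitors encoded by CDKN1A, CDKN1B and CDKN1C bind cyclin-CDK complexes and restrain mainly CDK2. ID proteins lack a DNA-binding region and sequester E proteins, which bind E-box sequences, and in several cell types they are known to lower the transcription of CDK inhibitor genes. U87MG cells are known to lack CDKN2A.

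The ID genes were read first, since they bear on the labels. ID4 mRNA was 223 ± 12.5 CPM (SD, n = 3) in the libraries labelled ID4 and had at most 10 counts in any other library. ID3 mRNA was 313 ± 11.4 CPM with the ID3 label and 221 ± 8.33 in GFP, and it was also raised with the ID2 label, at 287 ± 27.8. By contrast, ID1 mRNA was 250 ± 3.6 CPM with the ID1 label and 344 ± 6.96 in GFP, and ID2 mRNA was 44.9 ± 1.28 CPM with the ID2 label and 85.7 ± 2.81 in GFP. ID2 mRNA was lower in all 4 ID groups, at 34.3, 46.7 and 35.9 CPM with the ID1, ID3 and ID4 labels. Counts of ID1 and ID2 were thus lower with their own labels than in GFP. Whether these counts include transcripts from the virus was not tested. The groups are named here as libraries labelled ID1, ID2, ID3 and ID4. Total counts were 11089044 to 15148979 per library. Of 9 markers of glioma or mesenchymal-like lines, VIM, CD44, FN1, SPARC and NES had 223 counts or more in every library, while GFAP, S100B and SOX2 had at most 4 in any and OLIG2 had 2 to 11. The summed level of the 9 markers, mostly FN1, was 10160 to 11048 CPM in GFP and 12858 to 19930 in the ID groups, and its part in the results was not tested. Summed CPM of 4 leukocyte, 3 endothelial and 3 epithelial markers was at most 0.854, 0.767 and 1.12. Summed CPM of 3 neuronal markers was 7.13 to 10.0 in GFP and 10.2 to 32.9 in the ID groups, nearly all of it SNAP25, with RBFOX3 at 1 count or less, and its part was not tested either.

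Of the 10 members, 5 were detected in every group, with 10 or more counts in each library. These were the CIP/KIP inhibitor genes CDKN1A and CDKN1B, the INK4 inhibitor gene CDKN2D and the D cyclin genes CCND1 and CCND3. The other 5 members had at most 6 counts in any library and were not among the tested genes. The same 5 members were detected with a limit of 5 or of 20 counts.

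CDKN2A, CDKN2B and CDKN2C had 0 counts in all 15 libraries. CDKN2A encodes the INK4 inhibitor deleted in many glioblastomas, and lies on chromosome 9 of GRCh37 from 21967751 to 21995300. CDKN2B follows it from 22002902 to 22009304. A count of 0 allows up to 3 counts per library, which corresponded to 0.198 to 0.271 CPM, and this limit covers counting error only. Genes beside them on chromosome 9 were as low. KLHL9 and DMRTA1 had 0 counts in every library, and MTAP, a metabolic enzyme gene next to CDKN2A, and the antisense gene CDKN2B-AS1 had 0 to 3. CDKN2C lies on chromosome 1 from 51426417 to 51440306. FAF1, on the minus strand from 50902700 to 51425939, starts beside it. QuantSeq reads come from 3′ ends, and that of FAF1 lies at 50902700, away from CDKN2C. FAF1 had 1 count in 1 library labelled ID2 and 0 in the other libraries. Farther along chromosome 1 the counts returned, since RNF11, which starts at 51701945, had 573 to 992 counts per library and EPS15 had 279 to 422. The near absence of counts was thus shared by the listed genes closest to CDKN2A, CDKN2B and CDKN2C, in the GFP libraries as in all others. CDKN2B-AS1 overlaps CDKN2B on the opposite strand, and whether the counting used strand is not given in the sources used here.

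CDKN1C, an imprinted CIP/KIP inhibitor gene on chromosome 11, had 0 to 6 counts per library. Its counts in libraries 1, 2 and 3 were 0, 4 and 0 in GFP, 3, 0 and 5 with the ID1 label, and 1, 3 and 6 with the ID2 label. With the ID3 label they were 0, 2 and 0, and with the ID4 label 0, 1 and 0. The groups overlapped at this depth and no difference was detectable. CCND2, the D cyclin gene on chromosome 12, had 0 to 2 counts in every library and was at or below the floor throughout.

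**Figure D1:**
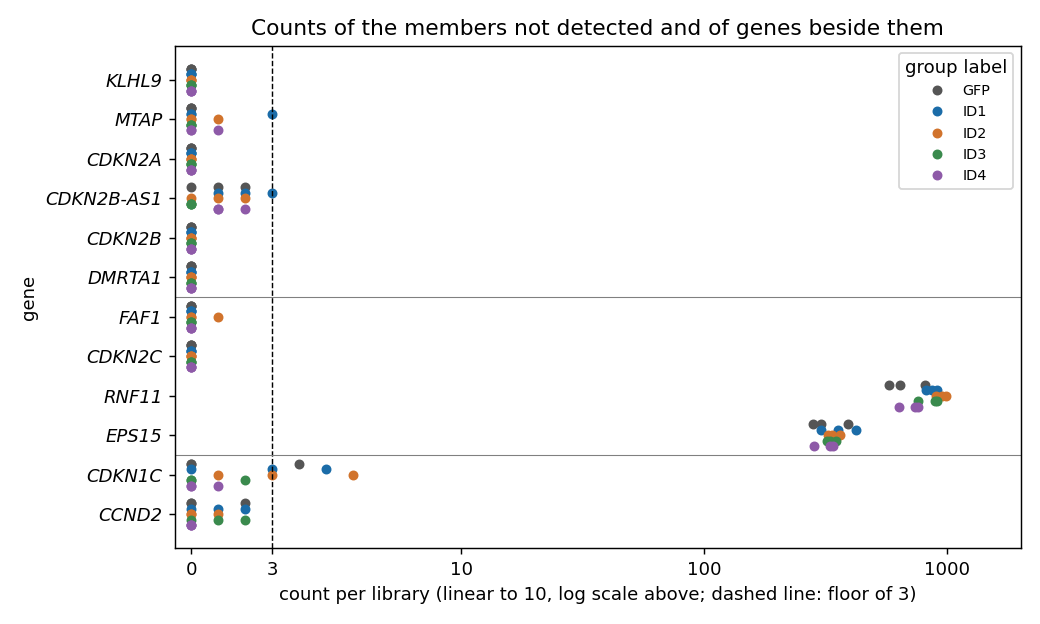
Count per library (horizontal axis, linear to 10 and logarithmic above) of the 5 members that were not detected and of 7 genes beside them, with 1 point per library coloured by group label and a dashed line at the floor of 3 counts. The 3 blocks hold genes of chromosome 9, genes of chromosome 1, and CDKN1C with CCND2; CDKN2A, CDKN2B and CDKN2C sit at 0, while RNF11 and EPS15 lie between 279 and 992 counts.

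Among the detected members, CCND1 had the highest level, at 419 CPM over all 15 libraries, followed by CDKN1A at 137, CDKN2D at 136, CCND3 at 85.4 and CDKN1B at 62.4. QuantSeq reads come from the 3′ ends of transcripts, so that these CPM levels were not divided by gene length. CCND1 ranked 369 of all listed genes by mean CPM and CDKN1B ranked 3139. The D cyclin and inhibitor messages of these cells were thus read from 2 and 3 genes.

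**Figure D2:**
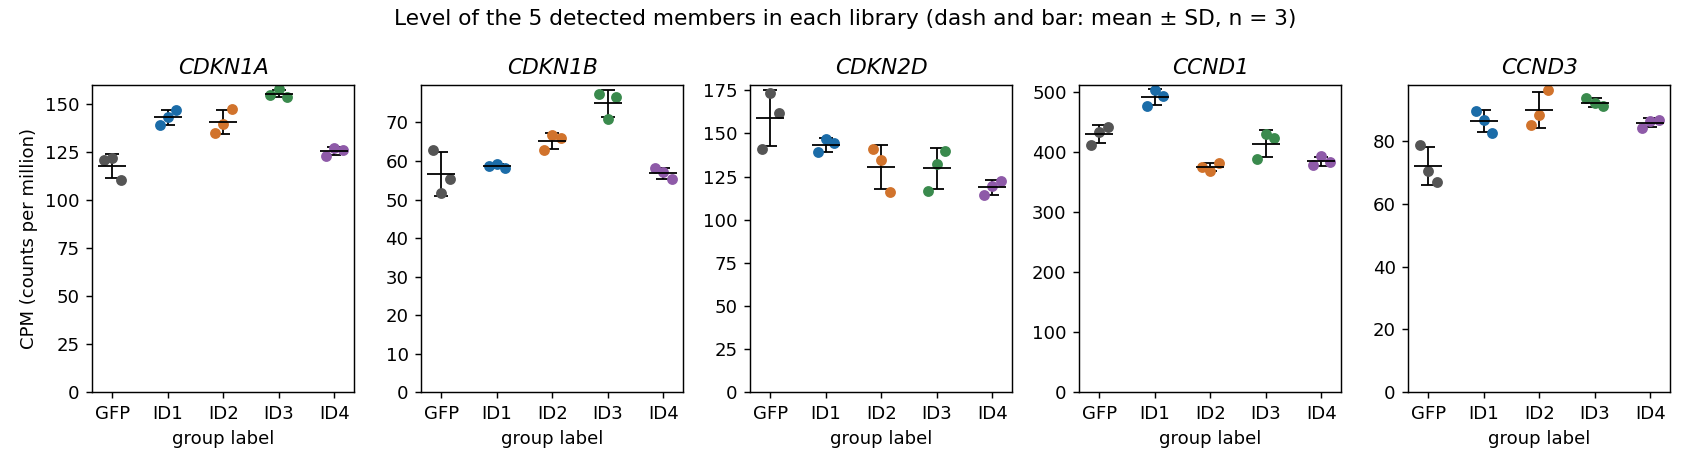
Level in CPM (vertical axis from 0, a separate scale for each gene) of the 5 detected members in the GFP group and the 4 ID groups, with 1 point per library and the mean ± SD (n = 3). The CDKN1A points with the ID3 label (154 to 158 CPM) lie above all others, and the CCND1 points with the ID1 label (477 to 504 CPM) do as well.

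Promoter sequences of the 3 detected inhibitor genes and of CCND3 are shown because ID proteins act through factors that bind E-boxes. They are from RefSeq (GRCh38.p14), run 5′ to 3′ on the strand of the gene from 250 bases before the start to 50 after it, and carry every CANNTG (the E-box) in capitals. The windows are chr6:36678464-36678763 on the plus strand for CDKN1A, chr12:12717118-12717417 on the plus strand for CDKN1B, chr19:10568930-10569229 on the minus strand for CDKN2D and chr6:42048639-42048938 on the minus strand for CCND3.
CDKN1A: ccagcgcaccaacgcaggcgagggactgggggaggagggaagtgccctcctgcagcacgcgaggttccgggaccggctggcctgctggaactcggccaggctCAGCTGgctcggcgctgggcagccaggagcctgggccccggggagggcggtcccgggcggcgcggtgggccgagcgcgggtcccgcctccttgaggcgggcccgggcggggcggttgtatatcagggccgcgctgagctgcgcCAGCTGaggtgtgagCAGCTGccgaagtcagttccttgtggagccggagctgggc
CDKN1B: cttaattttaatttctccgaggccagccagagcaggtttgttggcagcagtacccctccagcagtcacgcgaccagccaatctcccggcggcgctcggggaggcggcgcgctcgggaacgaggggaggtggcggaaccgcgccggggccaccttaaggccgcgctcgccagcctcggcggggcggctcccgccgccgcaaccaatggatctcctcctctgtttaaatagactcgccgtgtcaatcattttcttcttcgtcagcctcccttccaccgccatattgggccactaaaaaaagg
CDKN2D: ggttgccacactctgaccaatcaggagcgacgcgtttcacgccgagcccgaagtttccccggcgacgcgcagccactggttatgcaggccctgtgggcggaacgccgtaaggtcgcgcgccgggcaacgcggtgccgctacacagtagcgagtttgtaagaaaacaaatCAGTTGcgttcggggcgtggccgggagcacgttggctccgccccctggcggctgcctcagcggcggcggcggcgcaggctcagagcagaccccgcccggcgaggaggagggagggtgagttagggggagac
CCND3: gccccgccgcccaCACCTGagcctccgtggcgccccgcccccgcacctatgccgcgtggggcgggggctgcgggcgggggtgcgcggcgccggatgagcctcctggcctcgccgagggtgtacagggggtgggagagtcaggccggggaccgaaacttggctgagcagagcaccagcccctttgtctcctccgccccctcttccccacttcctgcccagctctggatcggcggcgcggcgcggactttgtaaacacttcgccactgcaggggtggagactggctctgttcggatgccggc
The CDKN1A window held 3 E-boxes, all CAGCTG, at positions -148, -5 and 11 from the start, where 1 is the base at the start. The CDKN1B window held none, the CDKN2D window 1 (CAGTTG at -81) and the CCND3 window 1 (CACCTG at -237). CANNTG reads the same on both strands and includes CAGCTG. It occurred in 68.7% of the 35116 promoters of the same length, CAGCTG in 17.9%, and 3 or more CAGCTG in 0.205%. The limit of 3 CAGCTG is the number found in the CDKN1A window, so that this share is a description and not a test. That window was 74.3% G and C, beside a median of 58.7% over all promoters. Of the 10 members, 7 had a promoter in the table. The first entry of each symbol was used, and any other start of the same gene was not read. A match describes letters in this window and is not a measured site.

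Of the 5 tested members, 3 differed from GFP with the ID1 label (percentage of all tested genes called: 22.1%), 5 with the ID2 label (35.1%), 4 with the ID3 label (28.6%) and 3 with the ID4 label (21.6%). Of these, 3, 3, 3 and 1 were higher than in GFP, beside 12.4%, 18.5%, 15.1% and 12.1% of all tested genes, and 0, 2, 1 and 2 were lower, beside 9.73%, 16.7%, 13.5% and 9.51%. All changes were small, between -0.42 and 0.38 on the log2 scale. Where called, CDKN1A, CDKN1B and CCND3 were higher and CDKN2D was lower than in GFP, while CCND1 was called in both directions. In RNA from whole cultures, a change in every cell and a change in the share of cells of a kind cannot be told apart. The median change of the 5 members was 0.18, 0.22, 0.33 and 0.00 for the ID1, ID2, ID3 and ID4 labels, while the median over all tested genes was 0.00 in each. The CPM ranges of the libraries did not overlap between groups for 3, 5, 4 and 4 of the 5 members, beside 37.1%, 42.3%, 40.6% and 37.1% of all tested genes. The 4 comparisons share the GFP libraries and are not independent of each other.

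Between ID groups, 2 members were called for ID3 against ID1 and 2 for ID2 against ID1, beside 9.18% and 18.6% of all tested genes, and 1 for ID4 against ID1 (4.87%). For ID4 against ID2 and ID4 against ID3, 2 members were called in each (18.6% and 11.3%), and 0 for ID3 against ID2 (15%). All of these calls were in CDKN1A, CDKN1B or CCND1. In ID3 against ID2, 1 member, CDKN1B, had an unadjusted p under 0.05 (log2 fold change 0.16, edgeR adjusted p = 0.0897).

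CDKN1A (ENSG00000124762), on chromosome 6 of GRCh37 from 36644237 to 36655114, encodes the inhibitor known as p21, which restrains mainly CDK2 complexes. Its CPM in libraries 1, 2 and 3 was 121, 122 and 110 in GFP, 139, 143 and 147 with the ID1 label, and 135, 140 and 148 with the ID2 label. With the ID3 label it was 155, 158 and 154, and with the ID4 label 123, 128 and 126. All 12 ID libraries therefore lay above all GFP libraries, with the ID4 libraries nearest to them. CDKN1A rose 1.20-fold with the ID1 label (log2 fold change 0.26, standard error 0.05, adjusted p = 0.000925, edgeR). It rose 1.21-fold with the ID2 label (0.27, standard error 0.05, edgeR adjusted p = 0.000384). The rise was 1.30-fold with the ID3 label (0.38, standard error 0.05, edgeR adjusted p = 1.35e-05). With the ID4 label the log2 fold change was 0.09 with a 95% interval of -0.02 to 0.20 (edgeR adjusted p = 0.263). In none of the 4 groups was CDKN1A lower than in GFP. Without any 1 library, the 3 calls remained, with an adjusted p of at most 0.00990.

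The ID groups also differed from each other in CDKN1A. Its order by mean CPM was ID3, ID1, ID2, ID4 and GFP, while the TMM-scaled fit put ID2 above ID1 by 0.01 on the log2 scale. The libraries labelled ID4 were lower than those labelled ID3 by a log2 fold change of -0.29 (edgeR adjusted p = 0.00116), and lower than those labelled ID2 by -0.18 (edgeR adjusted p = 0.0203). The latter call was lost without library 3 labelled ID2 (adjusted p = 0.0944) and without library 1 labelled ID4 (adjusted p = 0.0778). Between neighbours in the order, ID3 against ID1 (0.12, interval 0.01 to 0.23, edgeR adjusted p = 0.183) and ID2 against ID1 (0.01, interval -0.10 to 0.12, edgeR adjusted p = 0.936) did not pass the test.

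CDKN1B (ENSG00000111276), on chromosome 12 from 12838432 to 12875303, encodes the inhibitor known as p27, which holds cells in quiescence and is largely controlled by protein degradation. Its CPM was 62.8, 51.8 and 55.3 in GFP libraries 1, 2 and 3, 58.6, 59.1 and 58.1 with the ID1 label, and 62.9, 66.8 and 65.9 with the ID2 label. It was 77.3, 71.0 and 76.5 with the ID3 label and 58.0, 57.2 and 55.3 with the ID4 label. GFP library 1 stood above the other GFP libraries and above every library labelled ID1 or ID4, so that those groups overlapped with GFP, and it lay just under library 1 labelled ID2. CDKN1B rose 1.30-fold with the ID3 label (log2 fold change 0.38, standard error 0.06, adjusted p = 0.000112, edgeR). It rose 1.16-fold with the ID2 label (0.22, standard error 0.06, edgeR adjusted p = 0.0113). This call was lost without GFP library 2 (adjusted p = 0.0827) and in a fit of the ID2 and GFP libraries alone (adjusted p = 0.0599). The log2 fold change was 0.03 with the ID1 label (interval -0.10 to 0.17) and 0.00 with the ID4 label (interval -0.14 to 0.14).

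The libraries labelled ID3 were higher in CDKN1B than those labelled ID1 by 0.35 (edgeR adjusted p = 0.00138), and those labelled ID4 were lower than those labelled ID3 (-0.38, edgeR adjusted p = 0.000498). The difference between ID2 and ID1 was 0.19 (edgeR adjusted p = 0.0476), and it passed in 5 of 22 alternative fits, while that between ID4 and ID2 was -0.22 (edgeR adjusted p = 0.0224) and passed in 18 of 22. With the replicate number as a block, the ID2 and ID1 libraries no longer differed by the test (edgeR adjusted p = 0.0590). The region around CDKN1B had the largest median changes among those of the 5 detected members. The 44 tested genes within 5 Mb of it had a median log2 fold change of 0.35, 0.31, 0.27 and 0.32 for the ID1, ID2, ID3 and ID4 labels, with 19, 22, 16 and 19 of them called higher, beside 12.4%, 18.5%, 15.1% and 12.1% of all tested genes. CDKN1B itself was below these medians with the ID1, ID2 and ID4 labels and above with the ID3 label. The part of this region in the change of CDKN1B was not tested. Around the other 4 detected members the medians lay between -0.13 and 0.01. Within 5 Mb of CCND1, 141 genes were tested. Of them 17, 40, 18 and 41 were called lower with the ID1, ID2, ID3 and ID4 labels, and 10, 13, 19 and 7 higher. Of 160 genes around CDKN2D, 24, 23, 17 and 33 were called lower and 11, 30, 21 and 9 higher. Among all tested genes 9.73%, 16.7%, 13.5% and 9.51% were called lower. The part of these regions in the changes of CCND1 and CDKN2D was not tested.

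CDKN2D (ENSG00000129355), on chromosome 19 from 10677136 to 10679735, encodes the INK4 inhibitor that varies in level through the cell cycle, and it was the only INK4 member detected. Its CPM was 141, 173 and 162 in GFP libraries 1, 2 and 3, 139, 147 and 144 with the ID1 label, and 141, 135 and 116 with the ID2 label. With the ID3 label it was 117, 133 and 140, and with the ID4 label 114, 119 and 123. GFP library 1 was the lowest of its group and overlapped with the libraries labelled ID1, while the other ID groups lay below all GFP libraries, by less than 1 CPM for library 1 labelled ID2. CDKN2D fell by 0.42 on the log2 scale with the ID4 label (standard error 0.08, adjusted p = 0.000590, edgeR), to 0.747 times its GFP level. It fell by 0.31 with the ID3 label (standard error 0.08, edgeR adjusted p = 0.00570) and by 0.27 with the ID2 label (standard error 0.08, edgeR adjusted p = 0.0124). The ID2 call was lost without GFP library 2 (adjusted p = 0.0920) and without library 3 labelled ID2 (adjusted p = 0.0505). The log2 fold change with the ID1 label was -0.16 (interval -0.33 to 0.00, edgeR adjusted p = 0.163), and it passed without GFP library 1 (-0.25, adjusted p = 0.0297).

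By level, the order in CDKN2D was GFP, ID1, ID2, ID3 and ID4, and none of the neighbours in this order differed by the test. The largest difference between ID groups, -0.26 between ID4 and ID1, did not pass it (interval -0.43 to -0.09, edgeR adjusted p = 0.0738).

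CCND1 (ENSG00000110092), on chromosome 11 from 69455924 to 69469242, encodes cyclin D1, the D cyclin most often raised by growth factor signalling. Its CPM was 413, 434 and 442 in GFP libraries 1, 2 and 3, 477, 504 and 494 with the ID1 label, and 375, 369 and 381 with the ID2 label. It was 388, 430 and 423 with the ID3 label and 379, 393 and 383 with the ID4 label. The libraries labelled ID1 lay above, and those labelled ID2 and ID4 below, all GFP libraries, while the ID3 group overlapped with GFP. CCND1 rose 1.13-fold with the ID1 label (log2 fold change 0.18, standard error 0.05, adjusted p = 0.0149, edgeR). It fell by 0.18 on the log2 scale with the ID2 label (standard error 0.05, edgeR adjusted p = 0.00911) and by 0.16 with the ID4 label (standard error 0.05, edgeR adjusted p = 0.0288). With the ID3 label the change was -0.07 (interval -0.18 to 0.03, edgeR adjusted p = 0.306). The ID1 call was lost without GFP library 1 (adjusted p = 0.0786) or library 2 labelled ID1 (adjusted p = 0.0734). The ID4 call was lost without GFP library 2 or 3 or any 1 of the libraries labelled ID4 (adjusted p = 0.0528 to 0.0943).

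Between ID groups, CCND1 was lower than with the ID1 label by a log2 fold change of -0.36 with the ID2 label (edgeR adjusted p = 3.91e-05), -0.34 with the ID4 label (edgeR adjusted p = 0.000182) and -0.25 with the ID3 label (edgeR adjusted p = 0.00330). These 3 differences passed in all 22 alternative fits. The groups labelled ID2, ID3 and ID4 did not differ from each other in CCND1 by the test.

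CCND3 (ENSG00000112576), on chromosome 6 from 41902672 to 42018095, encodes cyclin D3, which shares its kinase partners with cyclin D1. Its CPM was 79.0, 70.5 and 67.1 in GFP libraries 1, 2 and 3, 89.7, 86.8 and 82.7 with the ID1 label, and 85.1, 88.4 and 96.4 with the ID2 label. With the ID3 label it was 93.8, 92.1 and 91.1, and with the ID4 label 84.3, 86.6 and 86.9. All 12 ID libraries lay above all GFP libraries. CCND3 was the only member called in the same direction in all 4 comparisons, as were 6.11% of tested genes called higher in all 4. The rise was 1.26-fold with the ID2 label (log2 fold change 0.33, standard error 0.06, adjusted p = 0.000282, edgeR) and 1.26-fold with the ID3 label (0.33, standard error 0.06, edgeR adjusted p = 0.000409). It was 1.18-fold with the ID1 label (0.24, edgeR adjusted p = 0.00771) and 1.19-fold with the ID4 label (0.25, edgeR adjusted p = 0.00746). Without GFP library 3, the lowest of its group, the ID1 and ID4 calls were lost (adjusted p = 0.0564 and 0.0548). The ID groups did not differ from each other in CCND3 by the test, with differences of -0.09 to 0.09.

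**Figure D3:**
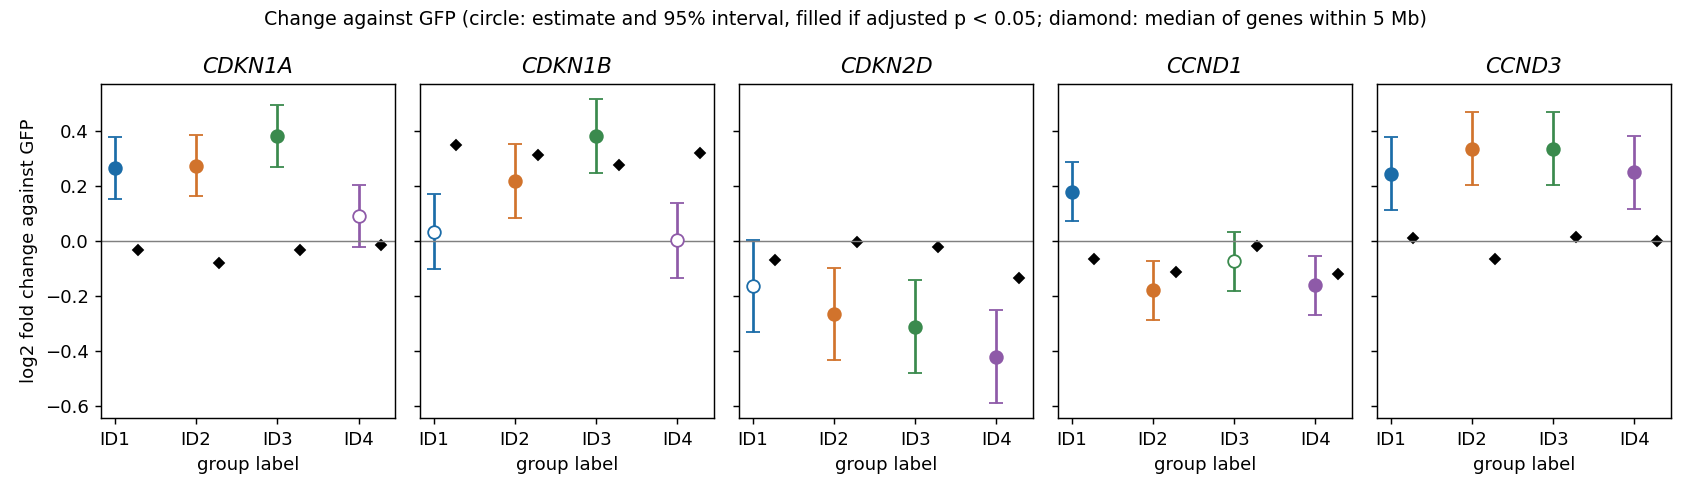
Log2 fold change against GFP (vertical axis) of the 5 tested members for each ID label, with the 95% interval, filled circles where the adjusted p was under 0.05, and black diamonds for the median log2 fold change of the tested genes within 5 Mb. CCND3 is filled in all 4 groups, CCND1 lies above 0 with the ID1 label and below 0 with the other labels, and the diamonds stand at 0.27 to 0.35 around CDKN1B alone.

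The change against GFP was tested for a difference among the 4 ID groups with a joint test that does not use the GFP libraries as a reference. It passed for CCND1 (adjusted p = 4.22e-05, edgeR), CDKN1B (0.000275) and CDKN1A (0.00251), and not for CDKN2D (0.0930) or CCND3 (0.432). Among all tested genes, 29.1% passed. CCND1, CDKN1B and CDKN1A passed in all 23 alternative fits.

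Ratios of counts within a library do not depend on the scaling of libraries, and they were chosen after the values of the members were seen. The ratio of CDKN1A to CDKN2D was 0.748 ± 0.0966 (SD, n = 3) in GFP. It was 1.00 ± 0.0212 with the ID1 label, 1.09 ± 0.163 with ID2, 1.21 ± 0.114 with ID3 and 1.06 ± 0.0257 with ID4. Every ID library exceeded every GFP library in this ratio (two-sided exact permutation test, p = 0.10 for each group, the smallest that 3 libraries against 3 allow). CDKN1A counts thus stood higher relative to CDKN2D counts in all 12 ID libraries, whatever the scaling. The ratio of CCND3 to CCND1 was 0.168 ± 0.0205 in GFP and 0.176 ± 0.0107 with the ID1 label, where the ranges overlapped (exact permutation p = 0.60). It was 0.240 ± 0.0129 with ID2, 0.224 ± 0.0157 with ID3 and 0.223 ± 0.00339 with ID4, each above all GFP libraries (exact permutation p = 0.10).

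The summed counts of CDKN1A, CDKN1B and CDKN2D were 0.664 ± 0.0222 times those of CCND1 and CCND3 in GFP. This ratio was 0.597 ± 0.00781 with the ID1 label, below all GFP libraries, and 0.724 ± 0.0307 with ID2 and 0.712 ± 0.0176 with ID3, above all of them (two-sided exact permutation p = 0.10 each). With the ID4 label it was 0.640 ± 0.00684 and overlapped with GFP (exact permutation p = 0.20). Relative to GFP, the summed ratio differed by at most 1.09-fold upward and was 0.899 times as high with the ID1 label.

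**Figure D4:**
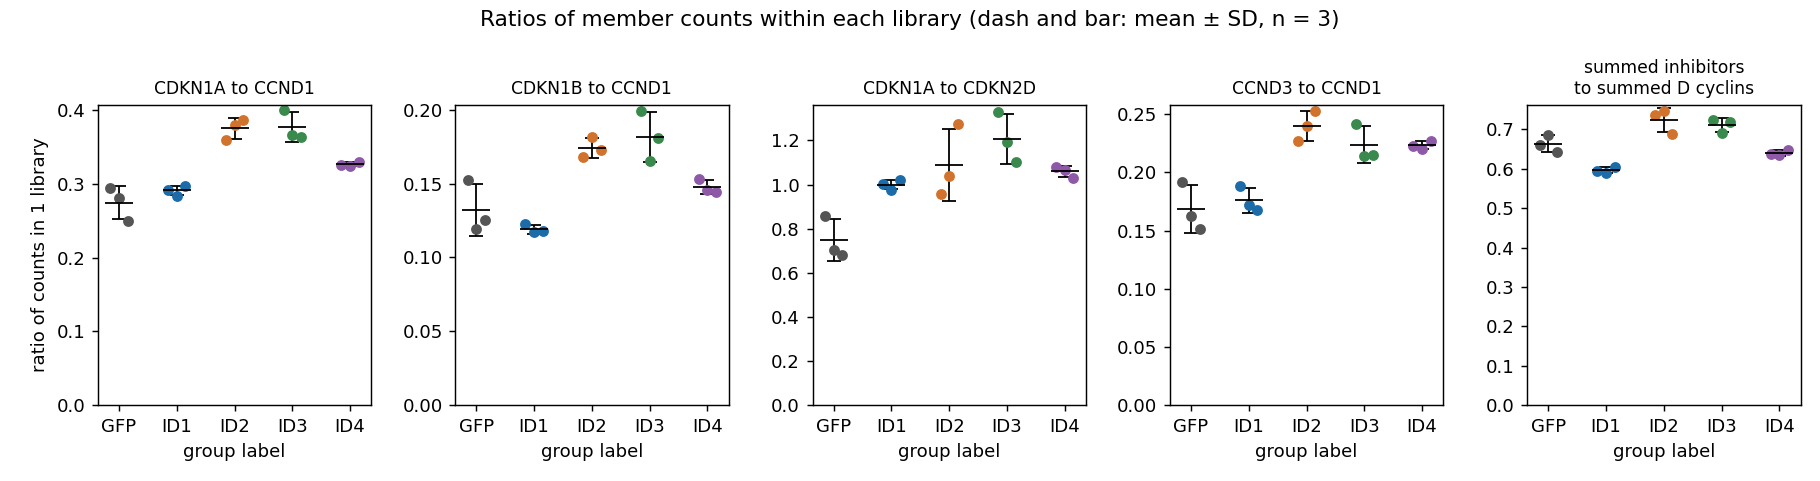
Ratio of counts within each library (vertical axis from 0, a separate scale for each ratio) for 5 pairs or sums of members, with 1 point per library and the mean ± SD (n = 3). All 12 ID libraries lie above the GFP libraries in the ratio of CDKN1A to CDKN2D, whereas the summed ratio is lower with the ID1 label (0.591 to 0.606) and higher with the ID2 and ID3 labels (0.689 to 0.747) than in GFP (0.643 to 0.687).

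The genes with the most similar pattern to each member were named by the Pearson correlation of log2(CPM + 1) over the 15 libraries, which share the split into groups. For CDKN1A they were FTH1 (r = 0.96), EPHA5 (0.95) and SORBS2 (0.95), and for CDKN1B they were MLLT11 (0.92), DUSP3 (0.91) and NCOA4 (0.90). The correlations with CDKN2D were lower, at 0.88 for MED25, 0.87 for STK32C and 0.86 for LRRC58. For CCND1 they were ATG4D (0.93), CCL2 (0.92) and NMU (0.92), and for CCND3 PSMB1 (0.95), CPEB1 (0.95) and LDLRAD2 (0.94). NMU, a neuropeptide gene, was at 5.85 CPM in GFP and 21.8 with the ID1 label, and at 1.91 to 3.55 with the other ID labels. Its order of ID1 above GFP is that of CCND1, which follows from its choice by correlation with CCND1. Among the members, CDKN1A correlated most with CCND3 (0.81) and CDKN1B (0.76), and CDKN2D ran against CCND3 (-0.74).

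Of the pathway genes named from here on, CDK4, CDK6, RB1, SKP2, CKS1B, SKP1, DTL and FBXO4 were chosen after their values were seen. Of 23 listed genes for G1 kinases, other cyclins, pocket proteins and E2F factors, 22 were tested, and 4, 8, 4 and 4 of them were called for the ID1, ID2, ID3 and ID4 labels, 3, 1, 2 and 3 of these higher, beside 22.1%, 35.1%, 28.6% and 21.6% of all tested genes called in either direction. CDK4, the kinase bound by D cyclins, had log2 fold changes of 0.13, 0.18, 0.02 and 0.20 and was called higher with the ID2 and ID4 labels. CDK6, its close relative, was called higher with the ID1 and ID3 labels, at 0.40 and 0.32. RB1, the gene of the retinoblastoma protein, had log2 fold changes of 0.01 to 0.16 and was called in none (smallest edgeR adjusted p = 0.161). RBL1, a related pocket protein gene, was lower in all 4 groups, at -0.31, -0.43, -0.53 and -0.32, as were 4.16% of all tested genes.

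Of 16 genes for the turnover of inhibitors and D cyclins, all tested, 5, 6, 5 and 2 were called, 3, 1, 2 and 1 of them higher, against the same shares of all tested genes (22.1%, 35.1%, 28.6% and 21.6%). SKP2, which directs the protein of CDKN1B to degradation, was called lower with the ID2 and ID3 labels, at -0.39 and -0.31. It was at -0.16 and -0.09 with the ID1 and ID4 labels and not called there, and its part in the level of CDKN1B mRNA was not tested. CKS1B, the gene of a cofactor of SKP2, was called lower with the ID1, ID2 and ID3 labels, at -0.20, -0.15 and -0.32. SKP1, on the same list, was instead called higher with the ID2 and ID3 labels, at 0.17 and 0.19. DTL, also listed, was called lower with the ID1 and ID2 labels, at -0.51 and -0.53. FBXO4, an F-box protein gene linked to cyclin D1 turnover, was called higher with the ID1, ID3 and ID4 labels, at 0.46, 0.32 and 0.34.

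Of 18 E2F target genes, which include 4 genes of the G1 list, 6, 12, 11 and 6 were called lower, beside 9.73%, 16.7%, 13.5% and 9.51% of all tested genes, and 0, 0, 0 and 1 higher. The list had a median log2 fold change of -0.14, -0.29, -0.22 and -0.16. MCM4 and MCM6, subunits of the replicative helicase, were lower in all 4 groups. MCM4 had log2 fold changes of -0.29, -0.53, -0.30 and -0.32 and MCM6 of -0.33, -0.43, -0.39 and -0.22. The counts of the lists are descriptions, and no test of a list as a whole was made.

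**Figure D5:**
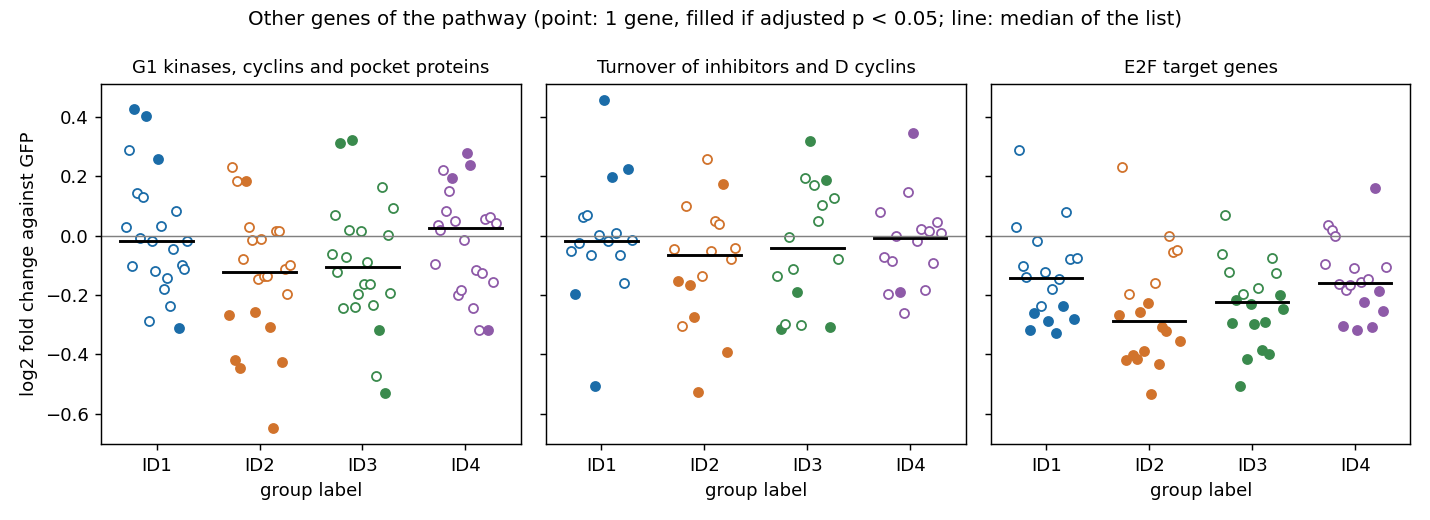
Log2 fold change against GFP (vertical axis) of the tested genes of 3 lists for each ID label, with 1 point per gene, filled where the adjusted p was under 0.05, and a line at the median of the list. The medians of the E2F target genes lie at -0.29 to -0.14, while the G1 and turnover lists have medians of -0.12 to 0.03.

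Of the E protein genes, whose products ID proteins bind, TCF12 was called higher in all 4 groups (log2 fold changes 0.58, 0.62, 0.68 and 0.56) and TCF4 as well (0.17, 0.53, 0.40 and 0.27). So were 6.11% of all tested genes. TCF3 was called lower with the ID1, ID2 and ID3 labels, at -0.31, -0.21 and -0.43, and was at -0.13 with the ID4 label (edgeR adjusted p = 0.130).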

How the data were processed

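RNA from 15 U87MG samples was made into QuantSeq 3′ libraries and processed by the company eBiogen. The authors deposited raw read counts per gene symbol, without normalization, and log2 values that the deposited table is named as quantile normalized. The submitters' processing notes name hg19 (GRCh37), Bowtie2 and BWA. The counting tool, its strand setting and the annotation are not given in the sources used here.

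The members and gene lists were chosen with earlier results of these data known, and named genes are the 10 members, 3 most similar genes per member, listed neighbours, E proteins and ID genes, and up to 3 genes per list with the largest change called in 1 direction in all 4 ID groups. Other genes are said to be named afterwards. The count model came from edgeR 4.0.16 (R 4.3.3), had 1 mean per group and scaled libraries by TMM, whose factors were 0.978 to 1.03. Testing covered 12870 entries, the upper part of the table when split at the median of mean log2 values (3.22). Standard errors were the log2 fold change divided by the root of the F statistic. CPM used total counts. The floor was 3 counts, and intervals were 95%. Alternatives used limma 3.58.1 and DESeq2 1.42.0. The tests were tried on simulated data. Gene positions came from GENCODE lifted to GRCh37. Whole lists were described by counts without a test. Replicates of a group differed beyond counting noise (chi-square of 2.26 to 11.4 per degree of freedom), so none was counted as a duplicate. The highest values, 10.9 and 11.4, were those of library 3 labelled ID2 against libraries 1 and 2 of its group. All other pairs were at 2.26 to 5.31. Some pathway genes are not reported here.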

Additional observations from a re-analysis of the deposited data

Results flagged for a closer look

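The change of 3 members against GFP differed among the 4 ID groups by the joint test of the edgeR fit. For CCND1 the adjusted p was 4.22e-05, with log2 fold changes of 0.18, -0.18, -0.07 and -0.16 for the ID1, ID2, ID3 and ID4 labels. For CDKN1B it was 0.000275, with log2 fold changes of 0.03, 0.22, 0.38 and 0.00. For CDKN1A it was 0.00251, with log2 fold changes of 0.26, 0.27, 0.38 and 0.09. ID1 and ID2 counts were not raised in the libraries carrying those labels, and the part of this in the differences was not tested.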

How the results depend on the processing

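The alternatives were other filters on low values, other scalings, DESeq2, limma with trend, a replicate block, a fit of only the groups compared, and leaving out each of the 15 libraries. The 20 changes of members against GFP and the 9 called differences between ID groups had 658 values under these alternatives. Of them 614 had the sign and call they had before, 36 lost the call, 1 gained it and 7 reversed. These reversals were all in CDKN1B, with 1 library left out and without a passing p. With 1 library left out, CDKN1B ranged from -0.025 to 0.104 in ID1 against GFP and from -0.056 to 0.0715 in ID4 against GFP, and in the latter the other reversed values were -0.016, -0.017, -0.0038, -0.0039 and -0.0039. The 21 uncalled differences between ID groups are not in this count. Of them, CDKN2D gained a call for ID4 against ID1 in 3 of 22 alternatives, CDKN1A for ID4 against ID1 and CCND1 for ID3 against ID2 in 2 each, and CDKN1B for ID3 against ID2 and CDKN2D for ID4 against ID2 in 1 each. CDKN1A for ID2 against ID1 (-0.03 to 0.04), CDKN2D for ID3 against ID2 (-0.12 to 0.04), and CCND3 for ID4 against ID1 (-0.03 to 0.03) and for ID3 against ID2 (-0.04 to 0.06) took both signs.

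With 1 library left out, the number of members called was 2 to 3 for the ID1 label, 3 to 5 for ID2, 4 to 4 for ID3, 1 to 3 for ID4 and 3 to 4 for the difference among the ID groups. The lowest value for ID2 came without GFP library 2, which took the calls of CDKN1B and CDKN2D. The lowest for ID4 came without GFP library 3, which took those of CCND1 and CCND3. A single GFP library thus decides calls near the threshold, and a single ID library does so as well, as given above for CCND1 and CDKN2D. Equal replicate numbers are not said to mark a shared culture, and the correlation of deviations between GFP and ID libraries of equal number was -0.16 to 0.12. The closest GFP library had the same number for 3 of 12 ID libraries. With the replicate block the number of members called was 3, 5, 4 and 3 for the ID1, ID2, ID3 and ID4 labels, as without it. Depth does not allow CDKN1C or CCND2 to be compared between groups.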
